A study of Mus musculus with 8 samples.

Results

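The 10 genes of fatty acid uptake and oxidation, *Cd36*, *Fabp3*, *Cpt1a*, *Cpt1b*, *Cpt2*, *Acadvl*, *Acadl*, *Acadm*, *Hadha* and *Hadhb*, were measured in mouse cardiac fibroblasts that carried reprogramming factors. They were chosen by name, for their place in the pathway, and all 10 of 10 were found among the 54532 genes of the deposited table. RNA sequencing covered 8 libraries of sorted eGFP+ cells in 4 groups of 2. MICFs, cardiac fibroblasts taken from infarcted hearts of male C57BL/6 mice (8 weeks old at surgery), were infected with lentiviruses for *Mef2c*, *Gata4* and *Tbx5* on 1 construct (MGT), for *Myocd* and *Sall4* on others, and for eGFP, all switched on by doxycycline. Some of the cells were transplanted into the left ventricle of C57BL/6 mice right after coronary ligation (*in vivo* samples), and others of the same infected cells stayed in culture (*in vitro* samples). Cells were recovered on Day 7 (1 week) or Day 14 (2 weeks).

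All 4 groups carried the same factors (genotype MGTMyoS overexpression) and received doxycycline, and no group without the factors was analysed here. Host mice also received tacrolimus, methylprednisolone and mycophenolate mofetil, whereas cultured cells were in a serum medium with the TGF-beta receptor inhibitor SB431542 and the JAK inhibitor baricitinib. The site of the cells, the host's drugs and the medium therefore cannot be told apart. Sorting by eGFP selects infected cells and not a cell type. Which animals or wells stood behind a replicate is not given in the sources used here, so the p-values measure only the spread between these libraries.

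Heart muscle draws most of its energy from long-chain fatty acids. CD36 helps them across the cell membrane, and FABP3, the heart form of the fatty acid-binding proteins, carries them through the cytosol. CPT1 on the outer mitochondrial membrane joins them to carnitine, with CPT1A as the widespread form and CPT1B as the muscle form, and CPT2 on the inner membrane returns them to coenzyme A. In the matrix, ACADVL, ACADL and ACADM begin the oxidation of very long, long and medium chains, and the trifunctional protein, built from HADHA and HADHB, completes the remaining steps for long chains.

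Stretches of DNA next to 3 annotated starts are shown from RefSeq on GRCm38.p6. *Fabp3* is shown because it was the only member that passed the test, and the capitals mark the 50 bases next to its RefSeq start. The deposited annotation starts *Fabp3* earlier, at base 130308595, so that all these capitals lie within the gene as deposited. *Acadm* is shown because its window alone among the members held AAGGTCA, the extended nuclear receptor half-site, which stands in capitals as its reverse complement. The stretch beside *Hadhb* is shown because *Hadha* and *Hadhb* lie back to back on chromosome 5, and the capitals mark the 85 bases between them.
Fabp3, chr4:130308488-130308737, plus strand: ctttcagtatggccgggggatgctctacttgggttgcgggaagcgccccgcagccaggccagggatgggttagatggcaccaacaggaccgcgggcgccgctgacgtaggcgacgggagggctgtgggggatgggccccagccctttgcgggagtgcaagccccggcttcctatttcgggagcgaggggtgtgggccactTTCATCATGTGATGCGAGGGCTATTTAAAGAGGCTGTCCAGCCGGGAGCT
Acadm, chr3:153944644-153944893, minus strand: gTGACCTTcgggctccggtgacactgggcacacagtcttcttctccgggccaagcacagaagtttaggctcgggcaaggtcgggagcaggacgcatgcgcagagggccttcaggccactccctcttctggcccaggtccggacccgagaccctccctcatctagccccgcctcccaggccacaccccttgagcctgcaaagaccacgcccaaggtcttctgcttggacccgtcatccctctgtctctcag
Hadha and Hadhb, chr5:30155138-30155272, plus strand: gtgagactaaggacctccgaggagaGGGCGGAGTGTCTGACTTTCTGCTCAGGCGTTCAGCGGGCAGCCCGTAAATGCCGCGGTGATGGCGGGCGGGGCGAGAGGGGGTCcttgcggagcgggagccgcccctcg

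The searches covered windows from 250 bases before to 50 after each RefSeq start, on both strands, for 9 members with a window and for 32851 windows of that length in all. AGGTCA, the nuclear receptor half-site, was found in 4 of 9 member windows (*Cd36*, *Cpt1a*, *Acadvl* and *Acadm*) and in 16.3% of all windows. AAGGTCA, which contains AGGTCA, was found in 1 (*Acadm*) and in 4.72% of all. GATAA, the GATA core, was found in 2 (*Acadvl* and *Acadl*) and in 25.4% of all. AGGTGT (a T-box half-site), CTATTTT (a MEF2 half-site) and the CArG box, the site of serum response factor, were found in 0 of 9, against 13.7%, 4.22% and 1.63% of all windows. The *Fabp3* window held none of these 6 letter patterns. These matches describe letters only.

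Values are FPKM, fragments scaled by gene length and by a size for each library, as the authors deposited them. The libraries held 12304242 to 14546904 fragments on genes. Tests were made with limma on log2(FPKM + 0.1) for 15708 genes that reached 0.5 FPKM in 2 or more libraries, and 9 of the 10 members passed that filter, all but *Cpt1b*. A gene was called where its Benjamini-Hochberg adjusted p was below 0.01 and its level differed by more than 1 on the log2 scale, and fold changes are given as *in vivo* minus *in vitro* unless a time comparison is named. Summed FPKM of 8 fibroblast markers, led by *Col1a1* and *Col3a1*, was 10148 to 13231 *in vivo* and 2080 to 3179 *in vitro*. That of 12 macrophage markers, led by *Lyz2*, was 2009 to 3150 *in vivo* and 4951 to 6073 *in vitro*, so that the libraries labelled as fibroblasts also held macrophage RNA. *Lyz2* made up much of that sum, and of the 12 markers 1 was called lower (*Lyz2*) and 1 higher (*Fcgr1*) *in vivo* at 1 week. At 2 weeks 6 of the 12 were called lower there, and 0 higher. That of 13 cardiomyocyte markers was 11.0 to 24.0 *in vivo*, 108 to 120 *in vitro* at 1 week and 565 to 644 *in vitro* at 2 weeks, sums carried by *Myh6*, *Actc1* and *Tnnt2*. Of the 11 of them tested, 6 were called lower and 1 higher (*Pln*) *in vivo* at 1 week. At 2 weeks 9 were called lower there, and *Pln* and *Myl2* higher. *Pln* shares 64.7% of its exonic bases with a gene on the opposite strand. No adipocyte marker of 7 was tested, their sum was at most 1.03, and the defining markers *Adipoq* and *Lep* were at 0 in every library. In such sorted bulk RNA, fewer cells of a type and less RNA per cell cannot be told apart.

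*Fabp3* was lower *in vivo* at both times, and it was the only member of the 9 tested to be called at either. At 1 week 1 member was lower and 0 were higher, where 5.07% of all genes tested were lower and 7.79% higher. At 2 weeks the count was again 1 lower and 0 higher, where 8.05% of all genes were lower and 9.02% higher. Of the genes called, 60.6% were higher at 1 week and 52.8% at 2 weeks, against 36.8% and 33.1% without the scaling between libraries. The other tested members differed by less than 2-fold, most of them toward lower values *in vivo*. The median log2 fold change of the 9 was -0.44 at 1 week and -0.39 at 2 weeks, against -0.01 and -0.00 over all genes tested. At an adjusted p under 0.05 with no limit on the fold, 6 members were lower and 1 higher at 1 week (20.6% and 21.4% of all genes), and 5 were lower and 1 higher at 2 weeks (25.2% and 24.6%). The 4 *in vivo* libraries lay wholly below the 4 *in vitro* libraries for 5 members, *Cd36*, *Fabp3*, *Acadl*, *Acadm* and *Hadhb*, as for 20.0% of all genes, and wholly above for 1, *Hadha*, as for 20.5%.

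**Figure D1:**
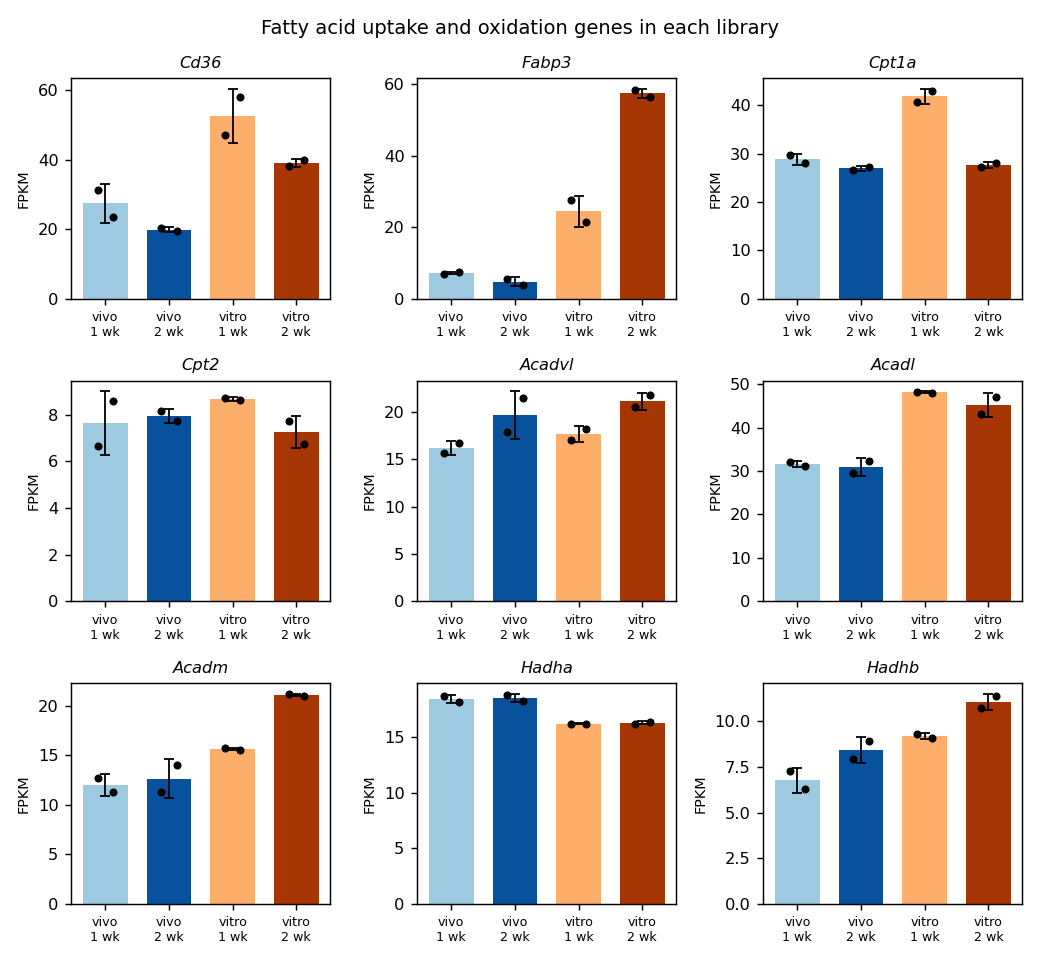
FPKM (y axis, from 0) of the 9 tested genes in each group (x axis), with points for the 2 libraries, bars for their mean and error bars for the SD. *Fabp3* has the widest range, from 3.85 in an *in vivo* library at 2 weeks to 58.2 in an *in vitro* library at 2 weeks, while *Cpt2* stays between 6.68 and 8.72.

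*Fabp3* (ENSMUSG00000028773) lies on chr4:130308595-130315463, plus strand. Its FPKM was 6.95 and 7.46 in the *in vivo* libraries at 1 week and 5.60 and 3.85 at 2 weeks. In the *in vitro* libraries it was 27.5 and 21.4 at 1 week and 58.2 and 56.5 at 2 weeks. Every *in vivo* library was below every *in vitro* library, and the *in vitro* libraries of 2 weeks were the highest. The log2 fold change was -1.74 (SE 0.18, limma, Benjamini-Hochberg adjusted p = 0.00039) at 1 week and -3.60 (SE 0.18, adjusted p = 1.2e-05) at 2 weeks. On the scale of mean FPKM, *in vitro* cells held 3.39 times as much at 1 week and 12.1 times as much at 2 weeks. Both calls held in all 18 alternatives tried, with a log2 fold change of -2.08 to -1.56 at 1 week and of -3.93 to -3.33 at 2 weeks. Of its exonic bases, 19.6% are also exons of *Zcchc17* on the opposite strand, whose FPKM reached 5.85.

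The gap in *Fabp3* was wider at 2 weeks. The difference between the 2 fold changes was -1.86 (SE 0.26, limma, Benjamini-Hochberg adjusted p = 0.0089), a difference for which 1.15% of all genes tested were called lower and 0.573% higher. The call was lost in 12 of 17 alternatives, among them leaving out any 1 library, where the adjusted p was 0.012 to 0.047 and the value -2.13 to -1.60. Within culture, *Fabp3* rose by 1.24 on the log2 scale from 1 to 2 weeks (SE 0.18, limma, Benjamini-Hochberg adjusted p = 0.0049), where 2.76% of all genes rose and 1.05% fell. That call was lost in 8 of 18 alternatives, with 2 groups alone in the fit (adjusted p = 0.024), with no filter (adjusted p = 0.013) and without any 1 of 6 libraries (adjusted p of 0.016 to 0.036). *In vivo* it was -0.62 (SE 0.18, adjusted p = 0.064), which was not called. The summed cardiomyocyte markers, carried by *Myh6*, *Actc1* and *Tnnt2*, were lower *in vivo* and higher at the later time in culture, like *Fabp3*. Of the single markers, *Pln* and *Myl2* were instead called higher *in vivo* at 2 weeks. The marker sums *in vivo* were 11.0 to 13.1 at 1 week and 18.1 to 24.0 at 2 weeks, opposite in order to *Fabp3*. The part of cardiomyocyte RNA in the *Fabp3* difference was not tested. Summed macrophage markers, led by *Lyz2*, were also higher *in vitro*. In culture they were 5308 and 6049 at 1 week and 4951 and 6073 at 2 weeks. Without *Lyz2* the culture sums were 1734 to 2034 at 1 week and 2030 to 2362 at 2 weeks. *In vivo* the full sums were 2748 to 3150 at 1 week and 2009 to 2425 at 2 weeks. The part of macrophage RNA in the *Fabp3* difference was also not tested.

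*Cd36* (ENSMUSG00000002944, chr5:17781690-17888801, minus strand) encodes the fatty acid translocase. Its FPKM was 31.4 and 23.5 *in vivo* against 47.1 and 58.1 *in vitro* at 1 week. At 2 weeks it was 20.3 and 19.5 *in vivo* against 38.2 and 39.9 *in vitro*. The groups did not overlap at either time. *Cd36* had a log2 fold change of -0.94 (SE 0.15, limma, Benjamini-Hochberg adjusted p = 0.0024) at 1 week and -0.97 (SE 0.15, adjusted p = 0.0017) at 2 weeks, just short of the fold limit. At 1 week *Cd36* passed the limit under quantile normalization (-1.06), without *in vivo* replicate 1 (-1.15) and without *in vitro* replicate 1 (-1.09), and at both weeks without the scaling between libraries (-1.28 and -1.30). *Cd36* is also a macrophage and endothelial gene. Macrophage markers other than *Lyz2* summed to 1417 to 1697 *in vivo* and 1734 to 2034 *in vitro* at 1 week and to 1034 to 1223 and 2030 to 2362 at 2 weeks, whereas summed endothelial markers were lower *in vitro*, at 23.3 to 64.1 against 108 to 117. The part of these cells in the *Cd36* values was not tested.

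**Figure D2:**
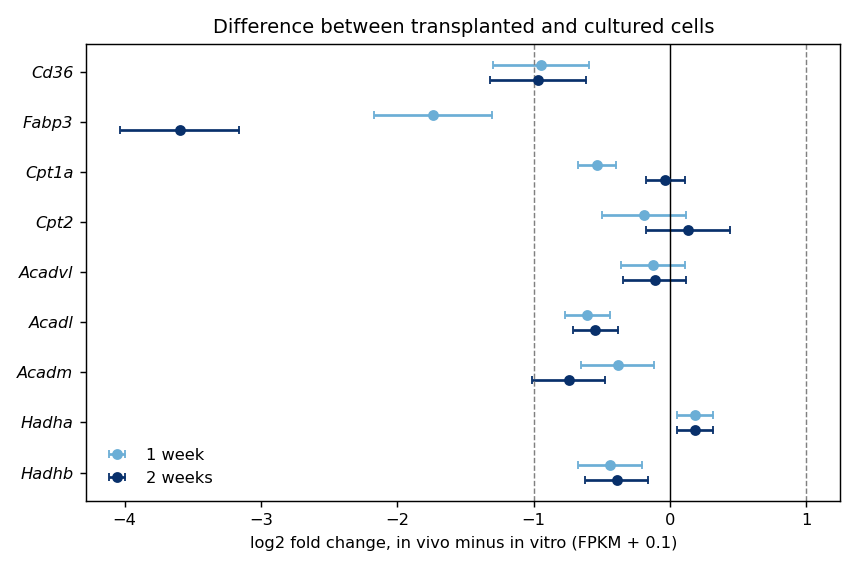
Log2 fold change of *in vivo* minus *in vitro* samples (x axis, on FPKM + 0.1) for the 9 tested genes, with points for limma estimates from 2 libraries a group, bars for 95% confidence intervals and dashed lines at the fold limit of 1. *Fabp3* lies beyond the limit at 1 week (-1.74) and 2 weeks (-3.60), and *Hadha* lies to the right of 0 (0.18 and 0.19) with the deposited scaling but to the left without it (-0.16 and -0.14).

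*Cpt1a* (ENSMUSG00000024900, chr19:3323301-3385732, plus strand), whose product is the entry step of long chains into mitochondria, differed between the groups at 1 week and, with the deposited scaling, hardly at 2 weeks. Its FPKM at 1 week was 29.6 and 28.0 *in vivo* and 40.7 and 42.9 *in vitro*. At 2 weeks it was 26.6 and 27.3 *in vivo* and 27.1 and 28.0 *in vitro*. The *in vitro* libraries of 1 week stood above all 6 others, which overlapped. The log2 fold change was -0.54 (SE 0.06, limma, Benjamini-Hochberg adjusted p = 0.00049) at 1 week and -0.03 (SE 0.06, adjusted p = 0.68) at 2 weeks, where the 95% interval ran from -0.17 to 0.11. Without the scaling between libraries the values were -0.88 at 1 week and -0.36 at 2 weeks. Over time in culture the log2 fold change was -0.60 (adjusted p = 0.0012), and the difference between weeks was 0.50 (adjusted p = 0.016), so that neither passed both limits. *Cpt1a* and *Fabp3* thus had opposite signs over the same 2 weeks of culture, -0.60 and 1.24.

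*Cpt2* (ENSMUSG00000028607, chr4:107903981-107923610, minus strand) returns acyl groups from carnitine to coenzyme A, and its libraries overlapped between the groups at 2 weeks. Its FPKM was 6.68 and 8.60 *in vivo* and 8.72 and 8.62 *in vitro* at 1 week, and 8.15 and 7.73 *in vivo* and 7.74 and 6.77 *in vitro* at 2 weeks. The log2 fold change was -0.19 (limma, Benjamini-Hochberg adjusted p = 0.28; 95% interval -0.50 to 0.11) and 0.13 (adjusted p = 0.43; -0.18 to 0.44), and the second became -0.20 without the scaling between libraries.

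*Cpt1b* (ENSMUSG00000078937, chr15:89416405-89425863, minus strand), the muscle form, was counted at almost nothing, and the annotation limits what that says. It had 1 and 1 fragments *in vivo* and 4 and 3 *in vitro* at 1 week, and 0 and 0 *in vivo* and 2 and 4 *in vitro* at 2 weeks, an FPKM of at most 0.0872. For the libraries at 0, a limit of 3 fragments corresponds to an FPKM of 0.0788 and 0.0806. Of its 3372 exonic bases, 2744 (81.4%) are also exons of *Gm44502*, a gene model on the same strand that runs from *Cpt1b* into *Chkb* (chr15:89416405-89429696) and has an FPKM of 0 in every library. Among 249 protein-coding genes that share at least 80% of their exonic bases on the same strand, 80.3% had a highest FPKM under 0.1, against 27.7% of 20207 genes that share none. Only the 628 bases of *Cpt1b* that are not shared may have been counted, so no level of *Cpt1b* RNA was read from these values. How fragments on shared exons were treated is not given in the sources used here.

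The acyl-CoA dehydrogenases, which carry out the same first step on chains of different length, differed in size of response. *Acadl* (ENSMUSG00000026003, chr1:66830839-66863277, minus strand) acts on long chains. Its FPKM was 32.0 and 31.2 *in vivo* and 48.3 and 48.1 *in vitro* at 1 week, and 29.5 and 32.3 *in vivo* and 43.2 and 47.2 *in vitro* at 2 weeks. The 4 *in vivo* libraries lay below the 4 *in vitro* libraries, with a log2 fold change of -0.61 (SE 0.07, limma, Benjamini-Hochberg adjusted p = 0.00058) at 1 week and -0.55 (SE 0.07, adjusted p = 0.00074) at 2 weeks, under the fold limit.

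*Acadm* (ENSMUSG00000062908, chr3:153922357-153944632, minus strand), for medium chains, had an FPKM of 12.7 and 11.2 *in vivo* and 15.7 and 15.6 *in vitro* at 1 week. At 2 weeks it was 11.3 and 14.0 *in vivo* and 21.2 and 21.0 *in vitro*. The groups did not overlap, and the *in vitro* libraries of 2 weeks were the highest. On the log2 scale the fold change was -0.38 (SE 0.11, limma, Benjamini-Hochberg adjusted p = 0.031) at 1 week and -0.74 (SE 0.11, adjusted p = 0.0016) at 2 weeks, and without the scaling between libraries the second was -1.07 and was called. The difference between weeks was -0.36 (adjusted p = 0.20).

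*Acadvl* (ENSMUSG00000018574, chr11:70010183-70015411, minus strand), for very long chains, had groups that overlapped at 2 weeks and lay close together at 1 week. Its FPKM was 15.7 and 16.7 *in vivo* and 17.1 and 18.2 *in vitro* at 1 week, and 17.8 and 21.4 *in vivo* and 20.5 and 21.8 *in vitro* at 2 weeks. The log2 fold change was -0.12 (limma, Benjamini-Hochberg adjusted p = 0.35; 95% interval -0.36 to 0.11) and -0.11 (adjusted p = 0.39; -0.34 to 0.12), and the second was 0.022 without *in vivo* replicate 1 of 2 weeks. Without the scaling between libraries the values were -0.46 at 1 week and -0.44 at 2 weeks. Of its exonic bases, 42.9% are also exons of *Dvl2* on the opposite strand, and whether strand was used in counting is not given in the sources used here. The ratio of *Acadvl* to *Acadm* within a library, which no scaling between libraries can move, was 1.23 to 1.59 *in vivo* and 0.967 to 1.17 *in vitro*, without overlap.

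*Hadha* and *Hadhb* encode the subunits of 1 enzyme complex and lie 85 bases apart in opposite directions, at chr5:30118304-30155162 on the minus strand (ENSMUSG00000025745) and chr5:30155248-30184593 on the plus strand (ENSMUSG00000059447). *Hadha* FPKM was 18.7 and 18.2 *in vivo* and 16.3 and 16.2 *in vitro* at 1 week, and 18.8 and 18.3 *in vivo* and 16.2 and 16.4 *in vitro* at 2 weeks, with each *in vivo* library above each *in vitro* library. *Hadhb* FPKM was 7.25 and 6.29 *in vivo* and 9.31 and 9.07 *in vitro* at 1 week, and 7.91 and 8.92 *in vivo* and 10.7 and 11.4 *in vitro* at 2 weeks, the reverse order. The log2 fold change of *Hadha* was 0.18 (SE 0.06, limma, Benjamini-Hochberg adjusted p = 0.034) at 1 week and 0.19 (SE 0.06, adjusted p = 0.028) at 2 weeks, but -0.16 and -0.14 without the scaling between libraries. That of *Hadhb* was -0.44 (SE 0.10, limma, Benjamini-Hochberg adjusted p = 0.011) and -0.39 (SE 0.10, adjusted p = 0.015). Neither gene was called.

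The ratio of *Hadha* to *Hadhb* does not depend on the scaling. It was 2.58 and 2.89 *in vivo* and 1.75 and 1.79 *in vitro* at 1 week, and 2.38 and 2.05 *in vivo* and 1.51 and 1.44 *in vitro* at 2 weeks. All 4 *in vivo* ratios were above all 4 *in vitro* ratios, and within each group of cells the later libraries had the lower ratios. This ratio and that of *Acadvl* to *Acadm* were chosen after the values had been seen and carry no test. The deposited gene lengths, 8730 bases for *Hadha* and 6595 for *Hadhb*, cover every annotated exon of each gene, so the level of the ratio says nothing of the number of subunits.

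**Figure D3:**
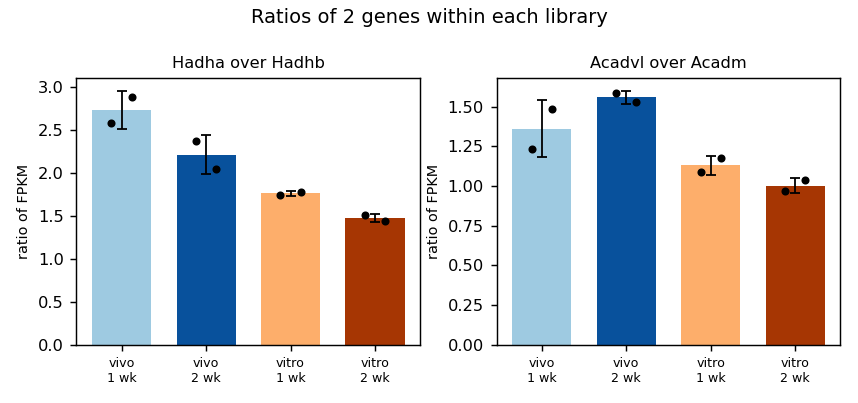
Ratio of FPKM within each library (y axis, from 0) for *Hadha* over *Hadhb* and for *Acadvl* over *Acadm* in the 4 groups (x axis), with points for the 2 libraries, bars for their mean and error bars for the SD. *Hadha* over *Hadhb* is 2.05 to 2.89 *in vivo* and 1.44 to 1.79 *in vitro*, without overlap.

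Over time, *Fabp3* in culture was the only member called. At an adjusted p under 0.05 with no limit on the fold, 2 members were higher at 2 weeks *in vitro* (*Fabp3* and *Acadm*, 0.43, limma, Benjamini-Hochberg adjusted p = 0.033) and 1 was lower (*Cpt1a*), where 14.1% and 11.0% of all genes were. *In vivo* 0 members were called by either rule, where 1.23% of all genes were called higher and 0.949% lower by the stricter rule and 8.59% and 7.17% by the wider one. *Cd36* was -0.42 *in vitro* (adjusted p = 0.083) and -0.45 *in vivo* (adjusted p = 0.090), and *Hadhb* was 0.26 (adjusted p = 0.095) and 0.31 (adjusted p = 0.077), all by limma after Benjamini-Hochberg correction. For the difference between weeks the wider rule took *Fabp3* and *Cpt1a*, in opposite directions, where 6.07% of all genes were lower and 3.85% higher.

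The order of the members by level also differed between the groups. Per length, *Acadl* (31.6 ± 0.616 FPKM, SD, n = 2), *Cpt1a* (28.8 ± 1.15) and *Cd36* (27.4 ± 5.56) led *in vivo* at 1 week. *Cd36* did not differ from *Acadl* or *Cpt1a* beyond its spread. At 2 weeks *in vivo* the order began with *Acadl* (30.9 ± 2.02), *Cpt1a* (26.9 ± 0.474) and *Cd36* (19.9 ± 0.593), and *Acadvl* (19.6 ± 2.54) overlapped both *Cd36* and *Hadha* (18.6 ± 0.352), which did not overlap each other. *In vitro* at 1 week it began with *Cd36* (52.6 ± 7.77), *Acadl* (48.2 ± 0.179) and *Cpt1a* (41.8 ± 1.54), and *Cd36* and *Acadl* overlapped. *Fabp3* stood at rank 8 *in vivo* at 1 week (7.21 ± 0.359) and rank 9 at 2 weeks (4.72 ± 1.24). In culture it stood at rank 4 at 1 week (24.4 ± 4.29) and rank 1 at 2 weeks (57.4 ± 1.25), above *Acadl* (45.2 ± 2.81).

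Among other genes of uptake and binding, the fatty acid-binding proteins went in different directions. Of 10 genes tested, 5 were called at 1 week (3 higher and 2 lower *in vivo*) and 4 at 2 weeks (2 in each direction), with a median of -0.08 and -0.34. Of all genes tested, 7.79% were called higher and 5.07% lower at 1 week, and 9.02% and 8.05% at 2 weeks. *Fabp5*, the epidermal form, was lower *in vivo* like *Fabp3*, with 18.0 and 15.1 FPKM against 44.6 and 40.1 at 1 week and 7.23 and 6.02 against 43.2 and 48.1 at 2 weeks. The values amounted to a log2 fold change of -1.35 (limma, Benjamini-Hochberg adjusted p = 0.00021) at 1 week and -2.77 (adjusted p = 7.1e-06) at 2 weeks. Summed macrophage markers other than *Lyz2* were 1417 to 1697 *in vivo* and 1734 to 2034 *in vitro* at 1 week. At 2 weeks these sums were 1034 to 1223 and 2030 to 2362. The part of macrophage RNA in the *Fabp5* difference was not tested. *Fabp4*, the form of adipocytes and endothelial cells, was higher *in vivo*, with 18.9 and 16.2 FPKM against 3.02 and 2.77 at 1 week and 13.3 and 17.0 against 7.52 and 7.44 at 2 weeks. On the log2 scale the difference was 2.55 (limma, Benjamini-Hochberg adjusted p = 1.6e-05) at 1 week. At 2 weeks it was 1.00 (adjusted p = 0.00084), a value at the fold limit that fell below it, or lost the adjusted p, in 5 of 18 alternatives.

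The ratio of *Fabp3* to *Fabp4* was 0.226 to 0.462 *in vivo* and 7.59 to 9.08 *in vitro*. Summed FPKM of 10 endothelial markers was 108 to 117 *in vivo*, 23.3 to 24.4 *in vitro* at 1 week and 54.5 to 64.1 *in vitro* at 2 weeks. *Fabp4* was ordered in the same way between culture and heart and over time in culture. *Gpihbp1*, the capillary anchor of lipoprotein lipase, named after its values were seen, was higher *in vivo* at 1 week (2.08, limma, Benjamini-Hochberg adjusted p = 0.0013) and rose by 2.19 in culture, so that at 2 weeks its log2 fold change was -0.41 (adjusted p = 0.27). The part of endothelial RNA in these differences was not tested. *Slc27a3*, a fatty acid transport protein and acyl-CoA synthetase, was higher *in vivo* by 2.81 at 1 week and 3.66 at 2 weeks. *Vldlr*, the very low density lipoprotein receptor, was lower by 2.07 and 1.57 on the log2 scale.

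**Figure D4:**
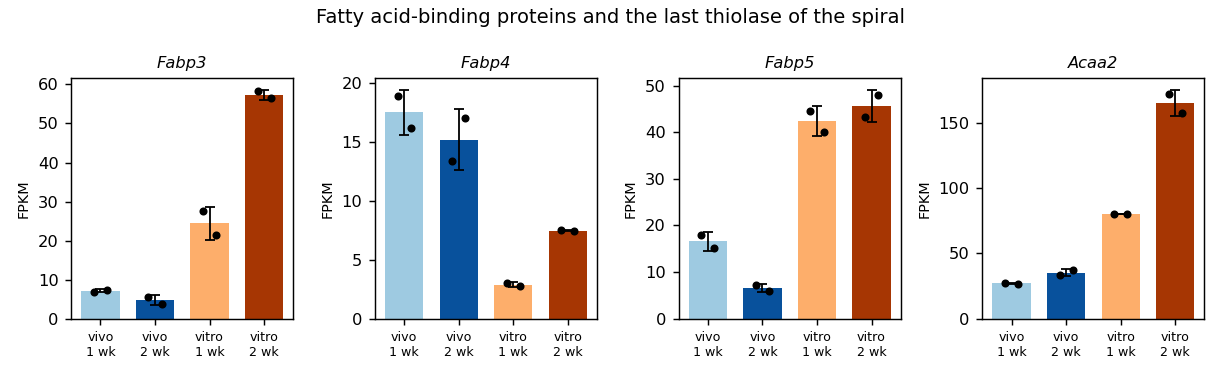
FPKM (y axis, from 0) of *Fabp3*, *Fabp4*, *Fabp5* and the mitochondrial thiolase gene *Acaa2* in the 4 groups (x axis), with points for the 2 libraries, bars for their mean and error bars for the SD. *Fabp3*, *Fabp5* and *Acaa2* are lower *in vivo* at both times, and *Fabp4* is higher, at 13.3 to 18.9 against 2.77 to 7.52.

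The genes that work next to the members were counted by the same rule. Over all genes tested, 7.79% were called higher *in vivo* and 5.07% lower at 1 week, and 9.02% and 8.05% at 2 weeks. None of 10 genes of fatty acid activation and the carnitine shuttle was called at either time, with a median of -0.31 and -0.39. Of 16 other genes of mitochondrial fatty acid oxidation, 1 was called at 1 week and 2 at 2 weeks, all lower *in vivo*, with a median of -0.33 and -0.35. *Acaa2*, the thiolase that cleaves medium and shorter chains, had an FPKM of 27.5 and 26.5 *in vivo* and 79.9 and 80.4 *in vitro* at 1 week, and 33.2 and 36.9 *in vivo* and 172 and 158 *in vitro* at 2 weeks. It thus differed by -1.57 (limma, Benjamini-Hochberg adjusted p = 1.0e-05) and -2.23 (adjusted p = 2.0e-06), and in culture it rose by 1.04 over time. The second lower gene, *Etfb* (-1.59 at 2 weeks), lost its call in 11 of 18 alternatives and shares 58.3% of its exonic bases with other gene models on its strand.

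Peroxisomal oxidation gave 0 calls of 11 genes at 1 week and 2 lower at 2 weeks, among them the thiolase gene *Acaa1b* (-2.63), with a median of -0.40 and -0.37. Of all genes, 5.07% were called lower at 1 week and 8.05% at 2 weeks. *Acaa1b* had 1 and 3 fragments in the *in vivo* libraries of 2 weeks, and its call was lost in 4 of 17 alternatives. Of 18 genes of the tricarboxylic acid cycle, which burns the acetyl-CoA from fatty acids, 0 were called at 1 week and *Suclg2* was lower at 2 weeks (-1.14), with a median of -0.26 and -0.36. Of 12 genes of fatty acid synthesis, 2 were lower at 1 week (*Fads2* -1.38 and *Scd1* -1.18) and 0 were called at 2 weeks, with a median of -0.49 and -0.11. Like that of the members, the medians of these lists were below that of all genes (-0.01 and -0.00). Without the scaling between libraries the median of all genes was -0.34 at 1 week and -0.32 at 2 weeks. Such a scaling moves all genes of a library by the same factor, so a list's distance from all genes stays about the same.

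Among 13 tested regulators of fatty acid oxidation, 3 were called at 1 week (1 higher *in vivo* and 2 lower) and 2 at 2 weeks, both lower. The shares over all genes tested were 7.79% higher and 5.07% lower at 1 week, and 9.02% and 8.05% at 2 weeks. *Pparg*, a nuclear receptor for fatty acids, had an FPKM of 2.55 and 2.26 *in vivo* and 3.85 and 4.17 *in vitro* at 1 week, and 1.35 and 1.53 *in vivo* and 8.52 and 7.87 *in vitro* at 2 weeks. It was lower by 2.43 on the log2 scale at 2 weeks (limma, Benjamini-Hochberg adjusted p = 1.0e-05), and its value of -0.72 at 1 week was not called. *Klf15* was lower *in vivo* at 1 week (-1.97), *Prkaa2*, a catalytic subunit of AMP-activated kinase, at both (-1.30 and -1.19), and *Esrrg* was higher at 1 week (2.06) at an FPKM under 1. Each *Prkaa2* call was lost in 5 of 18 alternatives, and that of *Esrrg* in 5 of 17. *Ppara* and *Ppargc1a* did not pass the filter on low values. Of 15 tested PPAR targets and lipid droplet genes, 3 were called at 1 week (1 higher, 2 lower) and 5 at 2 weeks (2 higher, 3 lower). *Pdk4*, which holds back pyruvate use, was lower at 2 weeks (-1.51), *Acot2* (-1.39) and *Plin4* (-2.05) were lower at 1 week, and *Mgll*, a lipase, was higher at both (1.44 and 1.09).

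**Figure D5:**
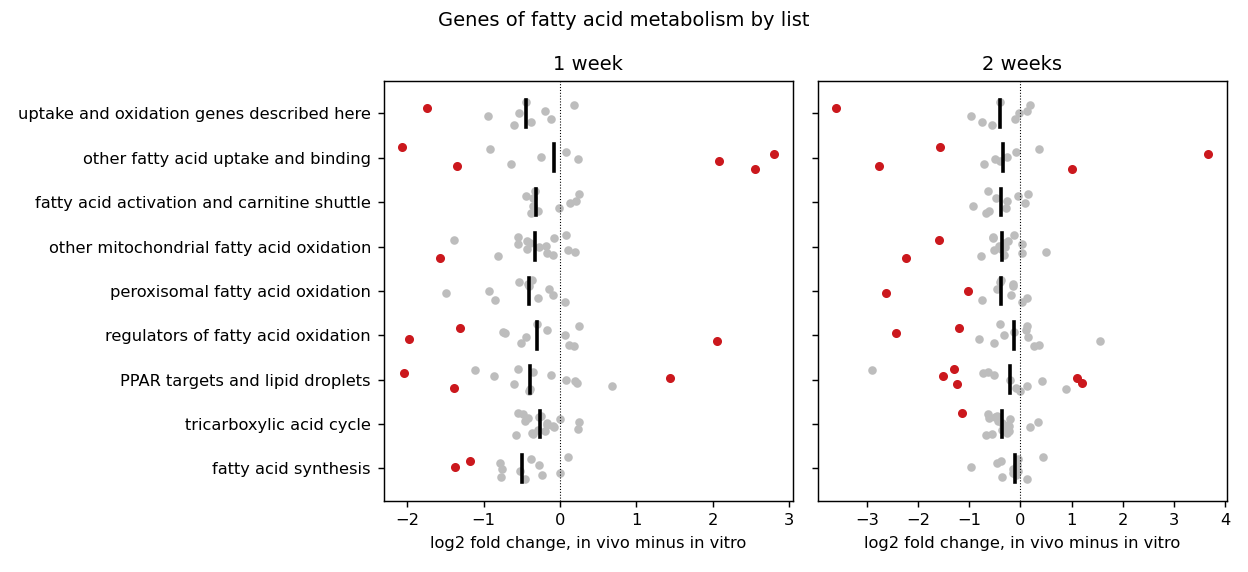
Log2 fold change of *in vivo* minus *in vitro* samples (x axis) at 1 week and 2 weeks for each tested gene of 9 gene lists (rows), with red points for called genes, grey points for genes not called and black lines for list medians. The 9 members have medians of -0.44 and -0.39 with 1 red point at each time, *Fabp3*.

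The genes whose pattern over the 8 libraries was most like that of a member, by Pearson's r of log2(FPKM + 0.1) among 13105 protein-coding genes, are given as a description. The libraries come in pairs from 4 groups, so such an r rests mainly on 4 group levels. For *Fabp3* they were *Frmd6* (r = 0.997), *Wdr91* (r = 0.992) and *Snx31* (r = 0.991), and for *Cd36* they were *Fam76b* (0.998), *Zfp91* (0.990) and *Xrn2* (0.988). For *Cpt1a* they were *Klf3* (0.987), *Polh* (0.985) and *Gsk3b* (0.981), for *Acadl* they were *Tgfb2* (0.995), *Samd10* (0.994) and *Akr1c13* (0.992), and for *Acadm* they were *Slc23a3* (0.994), *Tspyl1* (0.990) and *Psen2* (0.988). *Hadha* was the only tested member with all *in vivo* libraries above all *in vitro* libraries, and its direction reversed without the scaling between libraries. The genes most like *Hadha* were *Lgi3* (0.993), *H2-T23* (0.993) and *Irf9* (0.993), and for *Hadhb* they were *Bphl* (0.987), *Npy1r* (0.982) and *Aes* (0.981). *Cpt2* and *Acadvl* had lower values, of at most 0.925 and 0.971. Among the members themselves, *Acadl* and *Hadha* had r = -0.974 and *Acadm* and *Hadhb* had r = 0.925.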

How the data were processed

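mRNA libraries (SMARTer kit) of FACS-sorted eGFP+ cells were sequenced and mapped by a sequencing provider, and the submitters' processing notes name CASAVA, HISAT2 2.0.5 and the build mm10. The authors deposited FPKM for 54532 genes in 8 libraries, and 0 columns were left over. The counting tool and its use of strand are not given in the sources used here. Fragments were recovered from FPKM and gene length, and 100% of the values above 0 came out whole within 0.02 fragments. The size by which the FPKM were divided was 0.863 to 0.915 times a library's fragments on genes for *in vivo* samples and 1.09 to 1.15 times for *in vitro* samples, so the deposited values include a scaling between libraries. Limits from fragment counts cover counting error only. Replicates differed beyond sampling noise (chi-square of 4.25 to 9.22 per gene).

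Groups followed the GEO labels. log2(FPKM + 0.1) was fitted with limma 3.58.1 (R 4.3.3) with an intensity trend, all 8 libraries in 4 groups of 2 in one fit, with Benjamini-Hochberg adjustment over the 15708 genes that reached 0.5 FPKM in 2 or more libraries. Genes were called where the adjusted p was below 0.01 and the log2 fold change above 1 in size. DESeq2, the study's tool, was not run, since the deposited unit is FPKM, and voom was tried on the recovered fragments instead. The procedure was tested on simulated data. The members and the 14 gene lists were chosen with earlier results of these data known. All members are named. Of each other list, at most 4 genes are eligible, those called in most comparisons, then those with the largest absolute log2 fold change at 2 weeks. For each tested member, the 3 most correlated genes are eligible. The alternatives were other pseudocounts, filters, scalings and thresholds, voom on recovered fragments, the replicate number as a block, 2 groups alone and each library left out. Exons shared between genes were taken from GENCODE vM21 (GRCm38). Protein sequences were not analysed here. The result for 1 eligible gene is not reported here.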

Additional observations from a re-analysis of the deposited data

Results flagged for a closer look

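How far *Fabp3* differed from culture to heart was itself different between the weeks, by -1.86 on the log2 scale (SE 0.26, limma interaction contrast, Benjamini-Hochberg adjusted p = 0.0089). The 2 *in vitro* libraries were higher at 2 weeks than at 1 week, and the 2 *in vivo* libraries were lower. The adjusted p was over 0.01 in 12 of 17 alternatives and at most 0.047 in any of them.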

How the results depend on the processing

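Calls of *Fabp3* at 1 week and at 2 weeks were kept in all 18 alternatives. With 2 libraries per group, 1 library left out leaves a lone sample that is assumed to vary like the other groups, and smaller differences than those called may have been missed. Without the scaling between libraries, 2 members were called at 1 week and 3 at 2 weeks. Over all 15708 genes tested, 906 were then called higher *in vivo* and 1558 lower at 1 week, and 1032 and 2087 at 2 weeks. With the deposited scaling these counts were 1224 and 796 at 1 week, and 1417 and 1265 at 2 weeks. Without the scaling, *Hadha* also reversed to -0.16 and -0.14 and *Cpt2* at 2 weeks to -0.20. The deposited scaling thus decides the direction of *Hadha*, but not its ratio to *Hadhb*. Quantile normalization gave 2 members at 1 week and 0 for the difference between weeks. It called 1139 genes higher and 941 lower at 1 week, and 108 and 155 for the difference between weeks.

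At an adjusted p under 0.05 with no fold limit, 7 members were called at 1 week, 6 at 2 weeks, 2 for the difference between weeks and 3 over time *in vitro*, and the counts over all genes were 6605, 7825, 1558, 3942 and, over time *in vivo*, 2476. For the difference between weeks, 0 members were called with a pseudocount of 0.01, with no filter (72 genes in all) and without any 1 library (2 to 86 genes), where the reported fit called 1 and 271, and voom called 473 genes. Over time *in vitro*, where 1 member and 599 genes were called, no filter and the 2 groups alone called 0 members, the 2 groups alone called 0 genes, and leaving out 1 library gave 0 to 1 members and 198 to 555 genes. Over time *in vivo* 342 genes were called, against 0 with the 2 groups alone and 11 to 221 without 1 library. Leaving out 1 library gave 1 to 2 members at 1 week and 1 at 2 weeks, and moved *Acadvl* at 2 weeks between -0.24 and 0.022. The cause of these losses was not tested.

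No pairing by replicate number was seen, since same-numbered libraries of the 6 pairs of groups had correlations of -0.048 to -0.011 in their deviations. Whether same-numbered libraries shared a source is not given in the sources used here. With the replicate block, *Fabp3* had an adjusted p of 0.015 for the difference between weeks (limma, Benjamini-Hochberg), so that 0 members and 27 genes were called there, and no other count of members changed. Of 12 member differences between weeks or over time that were within 0.1, 10 changed sign under at least 1 alternative. Of the 38 calls of other genes eligible to be named, none changed sign, and 22 were lost under at least 1 alternative.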
